A study of Mus musculus with 10 samples.

Results

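Collagens are the main structural proteins of the extracellular matrix. Each molecule is a trimer of alpha chains wound into a triple helix, and the classes differ in what the trimers build: banded fibrils in connective tissue and cartilage, the sheet-like network of basement membranes, beaded filaments around cells, or anchors in the cell membrane. In the embryonic urogenital system fibrillar collagens are made mainly by stromal and other mesenchymal cells, whereas type IV collagen lines the epithelial tubules, the glomeruli and the vessels. The genes described here were all those whose symbol is Col, a number, the letter a and a number, and which had at least 1 probe set with that single symbol on the array. There were 42 such genes with 82 probe sets, among 18193 genes with 34945 probe sets in all. Col6a6, Col21a1 and Col28a1, which also belong to the classes used here, were not analysed here.

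The samples were urogenital systems of mouse embryos at embryonic day 15.5, hybridised to Affymetrix Mouse Genome 430 2.0 arrays. The mutant group comprised 5 RNA pools homozygous for the Wnt9b cneo allele (Wnt9bcneo/cneo), and the control group comprised 5 RNA pools whose genotype label is Wnt9bcneo/+, that is, with 1 copy of the same allele, although their titles call them WT. Wnt9b encodes a secreted signal of the ureteric bud and Wolffian duct that induces kidney tubules. How the cneo allele acts on Wnt9b is not stated by the labels, 1 to 2 urogenital systems gave the RNA of each labelling reaction, and the design text of the series describes kidney mesenchyme of an earlier stage and another allele. The replicates are separate pools, so a p-value here reflects how much pools of whole tissue vary, and in such tissue fewer cells of a type and less RNA per cell cannot be told apart.

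Values are linear probe set intensities scaled by the authors. The trimmed mean was 500.0 on all 10 arrays, and values at or below an intensity of 16 made up 19.9% to 21.1% of homozygous arrays, against 22.2% to 23.0% of control arrays. The Wnt9b probe set did not separate the groups, with log2 intensities of 5.58 to 7.65 in homozygous pools and 6.92 to 7.16 in control pools, and so did not check the genotype labels. Homozygous pool 5 and control pool 1 stood apart in the ratio of actin signal from the 3′ probe set to that from the middle one. This measure of RNA integrity was 97.7 and 94.8 there, against 9.87 to 33.1 on the other 8 arrays. Xist, the X-inactivation RNA of female cells, had log2 levels of 13.8 to 14.3 in homozygous pools 3, 4 and 5 and of 5.13 to 6.07 in the other 7 pools. Control pool 5 stood apart in cartilage genes, as described below for the cartilage collagens. Every collagen that carries a result was therefore also computed without these arrays.

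Of all 18193 genes, 98 passed an adjusted p of 0.05 as higher in homozygous pools (0.539%) and 78 as lower (0.429%), by limma with Benjamini-Hochberg adjustment over all genes. None of the 42 collagen genes passed in either direction, and the smallest adjusted p among them was 0.0987, for Col6a2. At an unadjusted p under 0.05, 8 collagen genes were higher (19.0% of 42) and 1 was lower, against 9.83% of all genes higher and 5.89% lower. The 8 were Col1a2, Col5a1, Col5a2, Col6a1, Col6a2, Col8a2, Col19a1 and Col25a1, and the lower one was Col6a5. All 5 homozygous pools lay above all 5 control pools for 3 collagen genes, Col1a2, Col6a1 and Col6a2 (7.14% of 42, against 2.61% of all genes), and below them for 0 (against 2.10%). The count of 3 was 7 without homozygous pool 2 and 6 without control pool 2, and the count of 0 was 2 without control pool 2. With fewer pools separation is easier for any gene, and the shares of all genes without these pools are not given here. These counts are therefore not read as a result about the collagens. The difference was positive for 25 of 42 collagens (59.5%), with a median log2 difference of 0.13 for the collagens and 0.00 for all genes. The same count over all genes gave 53.9%, but it took in genes at the floor on every array. Their difference is 0 and got a sign only by rounding, so the shares are not comparable.

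The promoters of the 3 genes whose pools did not overlap are shown because this separation of the pools was seen for no other collagen; by adjusted p, Col1a2 came after Col5a1, Col5a2 and Col25a1. Each line gives the 250 bases before an annotated transcription start, 5′ to 3′ on the gene's own strand, from RefSeq on GRCm38.p6, which held a window for 33 of the 42 genes. Col6a2 had 2 windows, of which the one listed first is given. That window belongs to an inner start: most of the printed stretch lies within the annotated gene, which spans 76595756 to 76623630. Capitals mark CCAAT and CCCTCCC on either strand, and neighbouring copies of CCCTCCC can overlap.
Col1a2, chr6:4505368-4505617, plus strand: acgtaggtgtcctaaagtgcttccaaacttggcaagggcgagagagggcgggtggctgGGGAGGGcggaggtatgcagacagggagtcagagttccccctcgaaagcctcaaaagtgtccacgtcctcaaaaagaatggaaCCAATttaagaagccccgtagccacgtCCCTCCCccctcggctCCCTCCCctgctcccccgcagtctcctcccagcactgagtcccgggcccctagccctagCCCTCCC
Col6a1, chr10:76726045-76726294, minus strand: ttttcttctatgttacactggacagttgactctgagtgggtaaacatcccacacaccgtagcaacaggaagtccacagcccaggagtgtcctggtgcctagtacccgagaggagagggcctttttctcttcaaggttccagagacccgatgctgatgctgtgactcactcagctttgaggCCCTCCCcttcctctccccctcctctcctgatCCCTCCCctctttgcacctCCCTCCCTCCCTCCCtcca
Col6a2, chr10:76623405-76623654, minus strand: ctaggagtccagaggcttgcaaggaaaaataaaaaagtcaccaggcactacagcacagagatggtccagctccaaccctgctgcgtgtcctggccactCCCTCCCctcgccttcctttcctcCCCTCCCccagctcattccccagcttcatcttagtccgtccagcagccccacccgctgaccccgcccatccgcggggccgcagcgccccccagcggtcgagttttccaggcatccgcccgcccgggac
The Col1a2 stretch held 1 copy of CCAAT and 4 of CCCTCCC, that of Col6a1 5 copies of CCCTCCC, and that of Col6a2 2. In windows from 250 bases before to 50 bases after the start, CCCTCCC was found on either strand in 16 of 33 collagen genes (48.5%) and in 22% of 32841 windows in the table; this motif was chosen after the windows had been read. CCAAT was found in 12 of the 33 (36.4%, against 37.4% of all windows) and TATAA in 7 (21.2%, against 24.9%). GGGCGG was found in 21 (63.6%, against 35.7% of all windows). These shares have unlike units, since each collagen gene gave 1 window while a gene can hold several of all windows. A match of letters describes the window and does not show that a factor binds there.

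**Figure D1:**
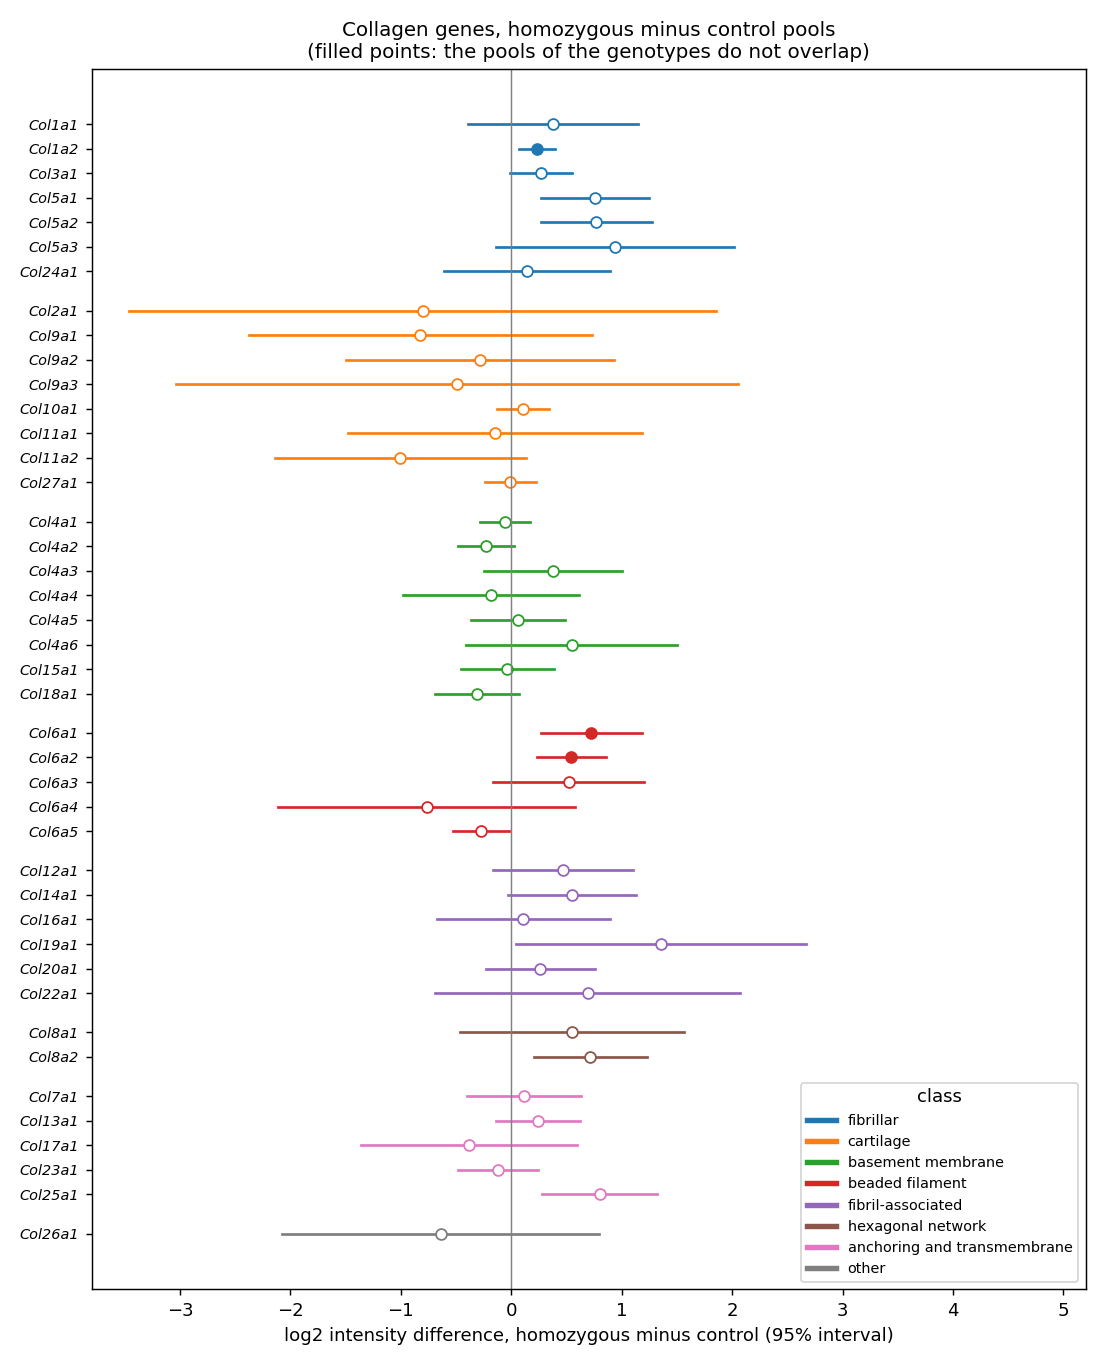
Log2 intensity difference, homozygous minus control, of each of the 42 collagen genes (points) with its 95% interval (lines), by class from top to bottom; filled points mark genes whose 5 homozygous pools all lie above the 5 control pools. The fibrillar genes lie to the right of 0 and the basement membrane genes lie around 0. The widest intervals are those of the cartilage genes Col2a1, Col9a1 and Col9a3. The filled points are Col1a2, Col6a1 and Col6a2.

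The fibrillar collagens of soft connective tissue had higher mean intensities in homozygous pools for all 7 genes, with a median log2 difference of 0.38, and none passed the test. The same direction was seen for 14 of their 15 probe sets, and the remaining one lay at the floor on every array. Averaged over the 7 genes, the log2 level was 11.7 to 12.2 in homozygous pools and 11.5 to 11.8 in control pools 2, 4 and 5, but 11.1 in control pools 1 and 3.

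Type I collagen, the most abundant fibrillar collagen of skin, bone and tendon, is a trimer of chains from Col1a1 and Col1a2. Col1a1 had intensities of 13515, 10843, 14591, 12091 and 6412 in homozygous pools 1 to 5 and of 4060.4, 9945, 7656, 11469.5 and 12539 in control pools 1 to 5. The pools overlapped broadly, and the lowest pool of each genotype was the one with the high actin ratio. The log2 difference was 0.38 ± 0.34 (SE, n = 5 each), or 1.30-fold (95% interval 0.763 to 2.22), with a limma adjusted p of 0.662. Without control pool 1 the Col1a1 difference was 0.11, and without homozygous pool 5 it was 0.58. The values of Col1a2 were 18699, 18836, 23428, 20909 and 21019.7 in homozygous pools 1 to 5, against 17679, 17715, 17041, 17234 and 17784 in control pools 1 to 5. Here every homozygous pool lay above every control pool, and the control pools lay within a narrow band. This gave a log2 difference of 0.23 ± 0.07 (SE, n = 5 each), a limma adjusted p of 0.160 and an exact permutation p of 0.00794. After quantile normalization it was 0.10. The other Col1a2 probe sets differed by 0.45, with no overlap of the pools, and by 0.52, and the second Col1a1 probe set by 0.76, so that the brightest probe set of each gene showed the smallest difference.

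Col3a1 encodes type III collagen, which accompanies type I in distensible tissues such as vessel walls. In homozygous pools 1 to 5 Col3a1 measured 21701, 21109, 27158, 24387 and 30692, and in control pools 1 to 5 it measured 23746, 22095, 18157, 18896 and 20331. The groups overlapped, since control pools 1 and 2 lay above homozygous pools 1 and 2. Its log2 difference of 0.27 ± 0.12 (SE, n = 5 each; 1.21-fold, 95% interval 0.991 to 1.47) had a limma adjusted p of 0.343. Its second probe set differed by 0.52. The 3 homozygous pools with the highest levels of both Col1a2 and Col3a1 were pools 3, 4 and 5, which are also those with high Xist; without them the log2 differences were 0.10 for Col1a2 and 0.06 for Col3a1. The part of embryo sex in these differences was not tested.

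Type V collagen starts fibrils and limits their width, and its usual trimer takes chains from Col5a1 and Col5a2. Intensities of Col5a1 were 7271, 5555, 9326, 7549 and 8847 in the homozygous pools in order, and 3467, 5560.2, 3085, 5513 and 5475 in the control pools. Homozygous pool 2 lay level with 3 of the control pools, the other 4 homozygous pools lay above all controls, and control pools 1 and 3 were lowest. On the log2 scale Col5a1 differed by 0.76 ± 0.22 (SE, n = 5 each, limma adjusted p = 0.128, exact permutation p = 0.0159). For Col5a2, homozygous pools 1 to 5 gave 9428, 7430.3, 12779, 10527 and 14302, and control pools 1 to 5 gave 4764, 7985, 4713, 7276 and 7132. Col5a2 is the neighbour of Col3a1 on chromosome 1, and its pools were ordered much like those of Col5a1, again with homozygous pool 2 among the controls. The means of Col5a2 differed by 0.77 ± 0.22 on the log2 scale (SE, n = 5 each), at an adjusted p of 0.129 by limma and an exact permutation p of 0.0159. Without the 2 arrays of high actin ratio the differences were 0.61 for Col5a1 and 0.57 for Col5a2, and without the 3 pools of high Xist 0.51 and 0.43. The third chain, Col5a3, ranged from 189 to 273 in homozygous pools and from 57.1 to 289.9 in control pools, a log2 difference of 0.94 ± 0.48 (SE, adjusted p = 0.394 by limma). Col24a1, a minor fibrillar collagen found with type I in developing bone, ranged from 88.7 to 206 in homozygous pools and from 83.9 to 188 in control pools, a log2 difference of 0.14 ± 0.33 (SE, adjusted p = 0.880 by limma).

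**Figure D2:**
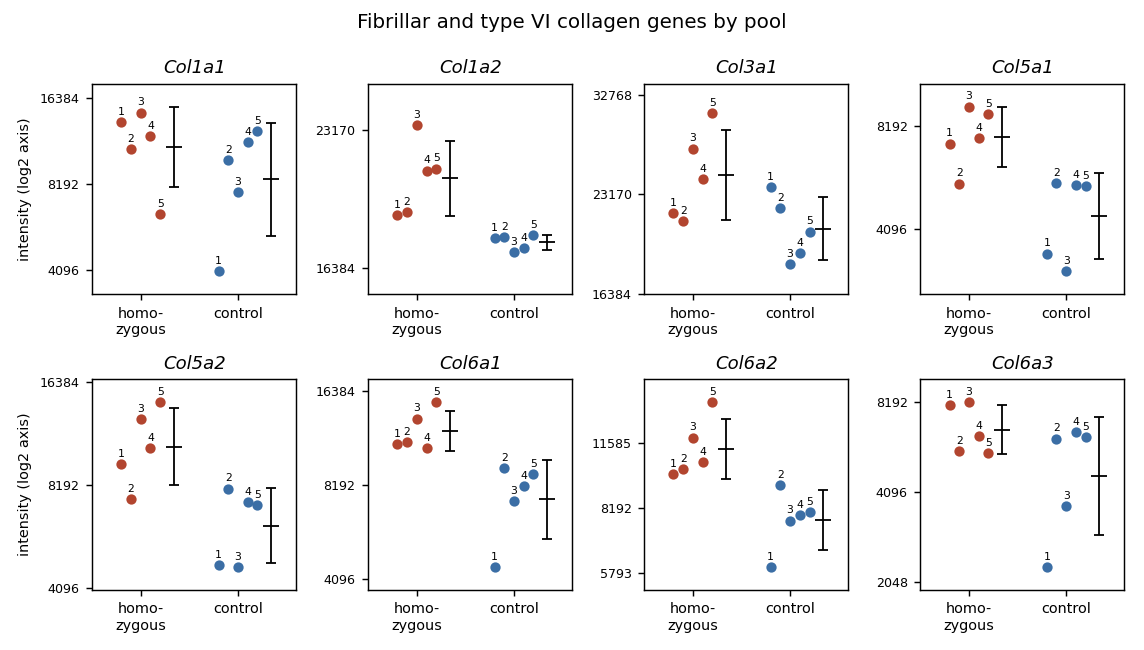
Intensity (log2 axis, own range in each panel) of Col1a1, Col1a2, Col3a1, Col5a1, Col5a2, Col6a1, Col6a2 and Col6a3 in each of 5 homozygous (left) and 5 control (right) pools; numbers are pool numbers, bars the mean ± SD of log2 values. Homozygous pools lie above all control pools for Col1a2, Col6a1 and Col6a2, and control pools 1 and 3 are low for Col5a1, Col5a2 and Col6a3.

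Type VI collagen forms beaded filaments that link cells to the surrounding matrix, and its standard trimer holds 1 chain each from Col6a1, Col6a2 and Col6a3. All 3 chains had higher mean intensities in homozygous pools, and for Col6a1 and Col6a2 the pools did not overlap. Signals of Col6a1 reached 11045, 11210.5, 13335, 10721 and 15032 in homozygous pools 1 to 5, as against 4477, 9243, 7261, 8106 and 8850.1 in control pools 1 to 5. Every homozygous pool was above every control pool, and control pool 1 was far below the other controls. The log2 difference was 0.73 ± 0.20 (SE, n = 5 each), or 1.65-fold (95% interval 1.21 to 2.27), with a limma adjusted p of 0.121 and an exact permutation p of 0.00794. Col6a2 had intensities of 9801, 10039, 11888, 10448 and 14338 in homozygous pools 1 to 5 and of 5983, 9254, 7649, 7867 and 7995 in control pools 1 to 5. The order of the pools resembled that of Col6a1, which lies near it on chromosome 10. This gave a log2 difference of 0.54 ± 0.14 (SE, n = 5 each), a limma adjusted p of 0.0987 and an exact permutation p of 0.00794. Its second probe set differed by 0.65, also with no overlap. An exact permutation p of 0.00794 is the smallest that 5 pools against 5 can give, it is unadjusted, and every gene without overlap has it.

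The values of Col6a3 were 8026, 5616, 8198, 6324 and 5548 in homozygous pools 1 to 5, against 2309, 6198, 3682, 6505 and 6266 in control pools 1 to 5. Control pools 1 and 3 were low, and the other 3 control pools lay within the homozygous range. Its log2 difference of 0.52 ± 0.30 (SE, n = 5 each; 1.43-fold, 95% interval 0.894 to 2.30) had a limma adjusted p of 0.468. Without control pool 1 it was 0.27. With array weights, which give noisier arrays less influence, Col6a1 (log2 difference of 0.53, limma adjusted p = 0.0474) and Col6a2 (0.43, adjusted p = 0.0282) passed as higher, where 3.26% of all genes did. Without the 2 arrays of high actin ratio the differences were 0.47 and 0.36, and without the 3 pools of high Xist 0.60 and 0.37. The other type VI chains had lower mean intensities in homozygous pools. Col6a4 had 48.9 to 89.3 in homozygous pools and 69.7 to 82.1 in 4 control pools, with 595 in control pool 2, a log2 difference of -0.77 ± 0.59 (SE, adjusted p = 0.5998 by limma) that was -0.17 without control pool 2 and -0.14 with the mean of its probe sets. Its second probe set, at the floor on 5 arrays, differed by 0.48. Col6a5 had 18.6 to 24.7 in homozygous pools and 21.2 to 30.8 in control pools, a log2 difference of -0.27 ± 0.11 (SE, adjusted p = 0.288 by limma), at levels near the floor of 16.

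Fibril-associated collagens sit on the surface of fibrils and join them to each other or to the matrix. Their 6 measured genes all had positive differences, with a median of 0.51 on the log2 scale and the same sign in 16 of 18 probe sets, the other 2 being at the floor. None passed. Type XIV collagen, from Col14a1, is found in dense connective tissue and helps to regulate fibril growth. In homozygous pools 1 to 5 Col14a1 measured 5409.9, 3546, 6135, 5325 and 6049, and in control pools 1 to 5 it measured 2197, 4533, 2683, 4615 and 4589. Control pools 1 and 3 were again lowest, and homozygous pool 2 lay below control pools 2, 4 and 5. On the log2 scale Col14a1 differed by 0.55 ± 0.26 (SE, n = 5 each, limma adjusted p = 0.346). Col19a1 encodes a collagen known in mice from muscle and basement membrane zones. Intensities of Col19a1 were 275, 109, 109.8, 104 and 121 in the homozygous pools in order, and 18.1, 57.8, 33.9, 183 and 57.3 in the control pools. Homozygous pool 1 was far above the other homozygous pools, and control pool 4 lay above 4 of the 5. The means of Col19a1 differed by 1.36 ± 0.58 on the log2 scale (SE, n = 5 each), at an adjusted p of 0.301 by limma and an exact permutation p of 0.0397. Col12a1, which like Col14a1 binds type I fibrils, had 2067 to 4431 in homozygous pools and 1369 to 2909 in control pools. Its log2 difference of 0.47 ± 0.28 (SE) was 0.30 without control pool 3 and 0.057 without the 3 pools of high Xist. The remaining 3 genes differed by 0.11 (Col16a1), 0.26 (Col20a1) and 0.69 (Col22a1), and Col16a1 was lowest in homozygous pool 5, at 758, and control pool 1, at 838, the arrays of high actin ratio.

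Col8a1 and Col8a2 encode the chains of type VIII collagen, which forms hexagonal networks under endothelium and in vessel walls. For Col8a1, homozygous pools 1 to 5 gave 467, 261, 664, 702 and 438, and control pools 1 to 5 gave 157, 597, 191, 359 and 573. The ranges overlapped almost entirely. The log2 difference was 0.55 ± 0.45 (SE, n = 5 each), or 1.47-fold (95% interval 0.727 to 2.96), with a limma adjusted p of 0.618. It was 0.29 without control pool 1, 0.36 without control pool 3 and 0.099 without the 3 pools of high Xist. Signals of Col8a2 reached 1979, 2110.3, 2503, 1965 and 2842 in homozygous pools 1 to 5, as against 968, 1155, 1313, 1425 and 2342 in control pools 1 to 5. Control pool 5 lay within the homozygous range, and the other 4 control pools lay below all homozygous pools. This gave a log2 difference of 0.72 ± 0.23 (SE, n = 5 each), a limma adjusted p of 0.163 and an exact permutation p of 0.0317. Without the arrays of high actin ratio this difference was 0.51, and without the pools of high Xist 0.57.

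Markers of connective tissue and muscle differed between pools in several ways. The summed intensity of 8 tendon and fibrous tissue markers was 2920 to 7148 in homozygous pools and 3744 to 5923 in control pools 2, 4 and 5, but 1145 and 1428 in control pools 1 and 3, the pools that were lowest for Col5a1, Col5a2, Col6a3, Col12a1 and Col14a1. Skeletal muscle markers (13 genes) summed to 4980 to 54662 in homozygous pools and 4403 to 58413 in control pools 2, 4 and 5, against 400.0 and 458 in control pools 1 and 3. Among homozygous pools, pool 5 had the lowest skeletal muscle sum, at 4980, and a fibrillar mean of 12.0. Smooth muscle markers (8 genes) summed to 13415 to 43865 in homozygous pools, against 12665, 26379, 11046, 12498 and 8594 in control pools 1 to 5, with positive differences for 8 of 8 and a median of 1.97. Among control pools, pool 5 had the lowest smooth muscle sum and a fibrillar mean of 11.8. Most of the sum in each control pool was Acta2, at 7318 to 17217. By gene, control pool 5 was the lowest of the 10 pools for 4 of the 8 and control pool 1 for 3. Renal stroma markers (10 genes) summed to 72242 to 97781 in homozygous pools, against 72513, 81642, 68059, 69220.3 and 68872 in control pools 1 to 5, with positive differences for 7 of 10. By these sums, in which bright genes weigh most, the tendon and skeletal muscle lists, of the 4, were lowest in both control pools 1 and 3. This was not particular to them. Neuronal and chromaffin markers summed to 690.5 and 965 in control pools 1 and 3, against at least 1818 in every other pool. Schwann and satellite glia markers summed to 1641 and 1330 there, against at least 2236 in every other pool. No gene of these lists was at the floor on every array; Fmod of the tendon list and Dcn of the stroma list also stand among the proteoglycans below. The part of tissue included in the dissections in the collagen differences was not tested.

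The cartilage collagens had lower mean intensities in homozygous pools for 7 of 8 genes, with a median log2 difference of -0.39, and none passed the test. The sign depended on 1 control pool: without control pool 5 the median was 0.14. That pool was the highest of all 10 for 7 of the 8 genes. Col9a1 and Col11a1 encode chains of types IX and XI, which coat and nucleate the type II fibrils of cartilage.

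Col9a1 had intensities of 727, 871, 652, 1147 and 1804 in homozygous pools 1 to 5 and of 1552, 843, 821, 1296 and 10607 in control pools 1 to 5. All homozygous pools and control pools 1 to 4 lay between 652 and 1804, and control pool 5 was 5.88 times the highest other pool. Its log2 difference of -0.82 ± 0.69 (SE, n = 5 each; 0.565-fold, 95% interval 0.192 to 1.66) had a limma adjusted p of 0.630. The values of Col11a1 were 473, 430.3, 819, 431 and 928 in homozygous pools 1 to 5, against 406, 453, 359, 539.6 and 3098 in control pools 1 to 5. Again only control pool 5 left the common range, at 3.34 times the highest other pool. On the log2 scale Col11a1 differed by -0.15 ± 0.59 (SE, n = 5 each, limma adjusted p = 0.951). Without control pool 5 these differences were -0.17 and 0.42. Col27a1, a fibrillar collagen of developing cartilage that also occurs elsewhere, behaved otherwise. In homozygous pools 1 to 5 Col27a1 measured 915, 1106, 1124, 1069.7 and 1028, and in control pools 1 to 5 it measured 1056, 1117, 908, 937 and 1279. Its pools overlapped throughout, and control pool 5 was 1.14 times the highest other pool. The means of Col27a1 differed by -0.0073 ± 0.10 on the log2 scale (SE, n = 5 each), at an adjusted p of 1.00 by limma.

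Col2a1, the main fibrillar collagen of cartilage, fell outside the rule for printing every pool and was added after its values were seen. Intensities of Col2a1 were 80.7, 72.7, 62.2, 52.7 and 63.5 in the homozygous pools in order, and 15.1, 58.5, 57.9, 135 and 2691 in the control pools. The homozygous pools were close together, while the control pools spanned from the floor to 19.9 times the highest other pool. The log2 difference was -0.80 ± 1.18 (SE, n = 5 each), or 0.573-fold (95% interval 0.0909 to 3.61), with a limma adjusted p of 0.783. Without control pool 5 the difference was 0.34. The other chains of the class followed: control pool 5 had 189 for Col9a2, 3814 for Col9a3 and 379.7 for Col11a2, which was 2.82, 12.1 and 4.63 times the highest other pool. Without it the differences were 0.16, 0.56 and -0.50, so that Col11a2 kept its sign. Col10a1, the collagen of hypertrophic cartilage, was at the floor on 4 arrays of each genotype and had no level to compare.

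**Figure D3:**
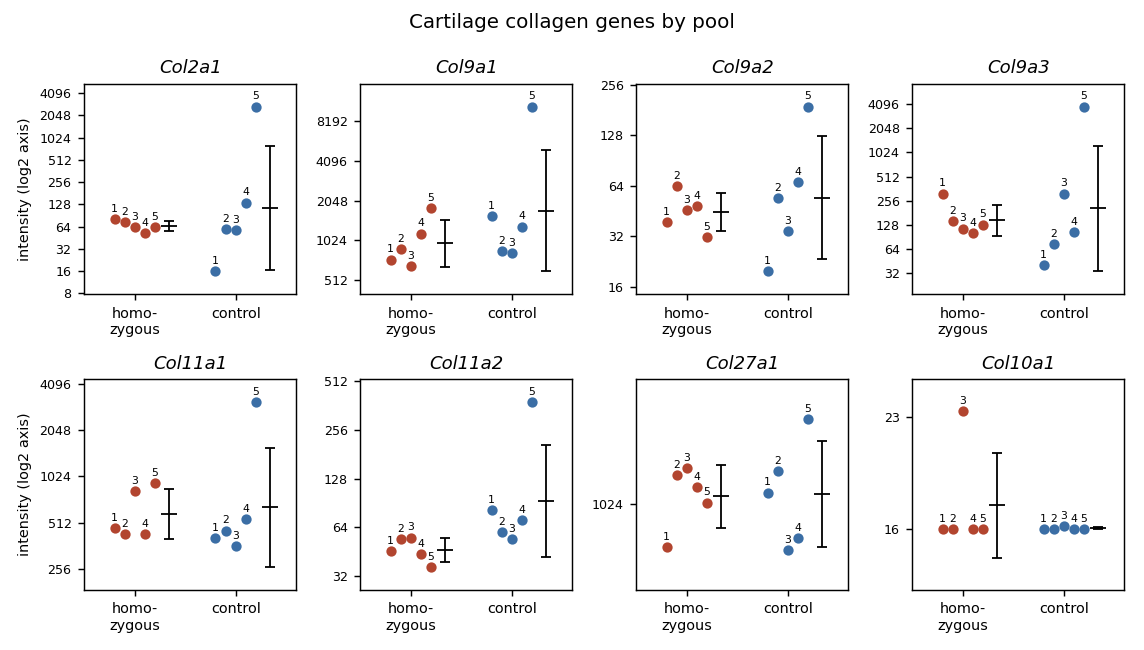
Intensity (log2 axis, own range in each panel, values under 16 set to 16) of the 8 cartilage collagen genes in each of 5 homozygous (left) and 5 control (right) pools; numbers are pool numbers, bars the mean ± SD of log2 values. Control pool 5 is the highest pool for every gene but Col10a1 and lies far above the other 9 for Col2a1, Col9a1, Col9a3, Col11a1 and Col11a2.

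Cartilage markers that are not collagens were high in the same pool. The 13 listed markers summed to 1488 to 2066 in homozygous pools, and to 1509, 1755, 1627 and 1699 in control pools 1 to 4, against 20569.7 in control pool 5. In that pool 9 of the 13 were at their highest and 7 were over 5 times the next pool, among them Acan, the cartilage proteoglycan aggrecan, at 2259 (at most 149 in homozygous pools and 103 in control pools 1 to 4), Cnmd, encoding chondromodulin, at 5259 (at most 259 in homozygous pools and 184 in control pools 1 to 4), and Matn1, a cartilage matrix protein, at 2217 (at most 39.3 in homozygous pools and 36.7 in control pools 1 to 4). Bone markers (5 genes) summed to 247 to 450.4 in homozygous pools and 276 to 981 in control pools, the highest again in control pool 5. The 4 cartilage markers not at their highest in that pool were the regulators Sox5 and Sox6, Ucma, of the growth plate, and Ihh, a signal of hypertrophic cartilage.

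The basement membrane collagens lay around 0, with 3 of 8 differences positive, a median of -0.05 and none past the test. At no gene did the pools separate. Markers of the epithelia with such membranes did differ between the genotypes: 10 proximal tubule markers summed to 2647 to 4079 in homozygous pools and 6497 to 10138 in control pools without overlap, and 6 of the 10 passed the test as lower. Podocyte markers (7 genes) had 6 negative differences and summed to 14847 to 17948 in homozygous pools and 12376 to 20876 in control pools. Most of this sum was Cdkn1c, at 10149 to 15649 in homozygous pools and 8385 to 14374 in control pools. Cdkn1c was the only one of the 7 with a positive difference, so the overlapping sums mainly describe that gene. Ureteric and collecting duct markers (10 genes) summed to 8516 to 26419 in homozygous pools and 12533 to 23505 in control pools, and endothelial markers (8 genes) to 5178 to 5545 in homozygous pools and 4525 to 6033 in control pools. Their part in the values of these collagens was not tested. The trimer of Col4a1 and Col4a2, which lie head to head on chromosome 8, occurs in nearly all basement membranes. For Col4a1, homozygous pools 1 to 5 gave 9765, 9508, 8938, 9025 and 7205, and control pools 1 to 5 gave 8233, 8226, 9867, 10168 and 9597. The groups shared most of their range, with homozygous pool 5 lowest. This gave a log2 difference of -0.05 ± 0.10 (SE, n = 5 each) and a limma adjusted p of 0.836. Signals of Col4a2 reached 5606, 5317, 5407, 4993 and 4062 in homozygous pools 1 to 5, as against 6547, 4838, 6071, 6410.1 and 5856 in control pools 1 to 5. Control pools 1, 3, 4 and 5 lay above all homozygous pools, and control pool 2 lay below 4 of them. Its log2 difference of -0.23 ± 0.11 (SE, n = 5 each; 0.853-fold, 95% interval 0.718 to 1.01) had a limma adjusted p of 0.365. Without homozygous pool 5 it was -0.15. The 95% interval for Col4a1 ran from 0.822 to 1.13 on the scale of folds.

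The chains of Col4a3, Col4a4 and Col4a5 form the trimer of the mature glomerular basement membrane, and mutations in these genes cause Alport syndrome in humans. Col4a3 had intensities of 134, 85.1, 67.9, 68.6 and 150.2 in homozygous pools 1 to 5 and of 84.1, 50.01, 78.9, 75.5 and 86.0 in control pools 1 to 5. Homozygous pools 1 and 5 were highest, and the other 3 lay among the controls. On the log2 scale Col4a3 differed by 0.38 ± 0.28 (SE, n = 5 each, limma adjusted p = 0.574). It was 0.21 without homozygous pool 5 and 0.24 without control pool 2. The values of Col4a4 were 325, 532, 229.6, 275 and 309 in homozygous pools 1 to 5, against 502, 205, 609.8, 236 and 432 in control pools 1 to 5. Both genotypes varied over a similar range. The means of Col4a4 differed by -0.18 ± 0.35 on the log2 scale (SE, n = 5 each), at an adjusted p of 0.845 by limma. Dimmer Col4a4 probe sets differed by -0.50 and 0.16. In homozygous pools 1 to 5 Col4a5 measured 2821, 3202, 2846, 3690.2 and 4733, and in control pools 1 to 5 it measured 4030.3, 4119, 3052, 2591 and 2750.1. Neither genotype lay above the other. The log2 difference was 0.06 ± 0.19 (SE, n = 5 each), or 1.04-fold (95% interval 0.779 to 1.40), with a limma adjusted p of 0.918. A dimmer Col4a5 probe set differed by -0.09.

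Col4a6, the neighbour of Col4a5 on the X chromosome, contributes to basement membranes of ducts and smooth muscle. Intensities of Col4a6 were 343, 265, 295, 430.3 and 210.1 in the homozygous pools in order, and 79.7, 423, 266, 160.3 and 252 in the control pools. Control pool 1 was far below the rest, and the other pools overlapped. This gave a log2 difference of 0.55 ± 0.42 (SE, n = 5 each) and a limma adjusted p of 0.597. Without control pool 1 the Col4a6 difference was 0.21, and its second, dimmer probe set differed by -0.07. Col15a1 and Col18a1 encode basement membrane zone collagens that carry sugar side chains, and a fragment of type XVIII is endostatin. For Col15a1, homozygous pools 1 to 5 gave 1008, 851, 696, 684 and 559, and control pools 1 to 5 gave 615, 628, 791, 874 and 971. The pools overlapped fully. Its log2 difference of -0.04 ± 0.19 (SE, n = 5 each; 0.975-fold, 95% interval 0.727 to 1.31) had a limma adjusted p of 0.972. Signals of Col18a1 reached 3670.4, 3672, 3504, 3864 and 2965 in homozygous pools 1 to 5, as against 6252, 3073, 4648, 4235 and 4208 in control pools 1 to 5. Control pool 2 lay among the homozygous pools and the other 4 control pools lay above them all. On the log2 scale Col18a1 differed by -0.31 ± 0.17 (SE, n = 5 each, limma adjusted p = 0.430). Without control pool 1 it was -0.18.

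**Figure D4:**
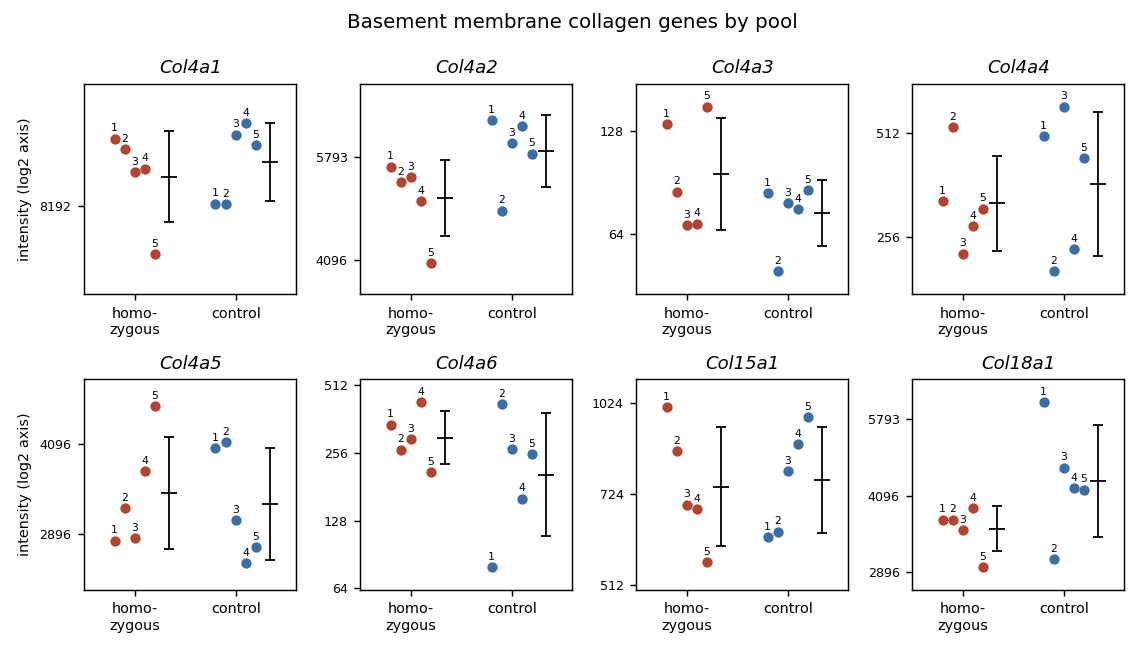
Intensity (log2 axis, own range in each panel) of the 8 basement membrane collagen genes in each of 5 homozygous (left) and 5 control (right) pools; numbers are pool numbers, bars the mean ± SD of log2 values. The genotypes overlap in every panel, and for Col4a2 and Col18a1 4 of the 5 control pools lie above all homozygous pools.

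Among the anchoring and transmembrane collagens 3 of 5 differences were positive, with a median of 0.11, and none passed. Col25a1 encodes a membrane collagen known in mice to be needed for motor innervation of muscle. Col25a1 had intensities of 1598, 1204, 1771, 1739 and 2353 in homozygous pools 1 to 5 and of 811, 1409, 1013, 666 and 1125 in control pools 1 to 5. Control pool 2 lay above homozygous pool 2, and the other control pools lay below all homozygous pools. The means of Col25a1 differed by 0.80 ± 0.23 on the log2 scale (SE, n = 5 each), at an adjusted p of 0.131 by limma and an exact permutation p of 0.0159. Its second, dimmer probe set differed by 0.99. Without the arrays of high actin ratio the Col25a1 difference was 0.62, and without the pools of high Xist 0.51. Neuronal and chromaffin markers (9 genes) summed to 8707 to 21748 in homozygous pools and 690.5 to 5655 in control pools without overlap, and their part in the Col25a1 difference was not tested.

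Col13a1 encodes a membrane collagen of cell junctions, including the neuromuscular one. The values of Col13a1 were 687, 731, 528, 645 and 835 in homozygous pools 1 to 5, against 595, 673, 604, 398 and 647 in control pools 1 to 5. The groups overlapped. The log2 difference was 0.24 ± 0.17 (SE, n = 5 each), or 1.18-fold (95% interval 0.906 to 1.54), with a limma adjusted p of 0.557. Without control pool 4 it was 0.11. The differences were 0.11 for Col7a1, the anchoring fibril collagen of skin, -0.38 for Col17a1, of epithelial hemidesmosomes, and -0.12 for Col23a1. Col26a1, first described in testis and ovary, was placed in none of the classes above. In homozygous pools 1 to 5 Col26a1 measured 305, 312, 207, 138 and 39.7, and in control pools 1 to 5 it measured 89.3, 276, 300.0, 391 and 344. Homozygous pool 5 and control pool 1, the arrays of high actin ratio, were lowest. This gave a log2 difference of -0.64 ± 0.63 (SE, n = 5 each) and a limma adjusted p of 0.672. It was -0.13 without homozygous pool 5 and -1.01 without control pool 1, and 0.30 without the 3 pools of high Xist.

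Across all 42 genes the extremes were shared unevenly among pools. Control pool 1 was the lowest of the 10 pools for 15 genes, and homozygous pool 5 and control pool 3 for 8 each. Homozygous pool 5 was highest for 10 genes, and homozygous pool 3 and control pool 5 for 7 each. The mean log2 level over all 42 genes was 9.39 to 9.54 in homozygous pools and 8.80 to 9.95 in control pools, so that the control pools differed more among themselves.

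Genes that make, modify, bind or remove collagen were examined as 8 lists, and no gene of any list passed the test. The enzymes that hydroxylate collagen chains, a step needed for a stable helix, had 7 of 13 positive differences, with the smallest p for P4ha2 (0.65 ± 0.33, adjusted p = 0.395) and P4ha1 (0.48 ± 0.28, adjusted p = 0.464), both catalytic subunits of prolyl 4-hydroxylase. Of 9 genes for folding, export and glycosylation 5 were positive, with the smallest p for Sec23a (0.39 ± 0.17, adjusted p = 0.299), a coat protein of the vesicles that leave the endoplasmic reticulum, and Colgalt2 (-0.75 ± 0.50, adjusted p = 0.526), a collagen galactosyltransferase. Mia2, among the 5, was at the floor on 3 arrays of each genotype. Of 7 genes for procollagen processing 4 were negative, and Tll2 was at the floor on all 5 arrays of each genotype. The only positive ones also had the smallest p: Pcolce (0.54 ± 0.20, adjusted p = 0.232), which enhances cleavage of the C-terminal propeptide, and Adamts3 (0.43 ± 0.28, adjusted p = 0.531), which removes an N-terminal propeptide.

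All 4 measured lysyl oxidases, which cross-link collagen, had positive differences, with the smallest p for Lox (0.61 ± 0.20, adjusted p = 0.182) and Loxl3 (0.20 ± 0.18, adjusted p = 0.663). All 10 fibril-binding proteoglycans and related proteins were positive, with a median of 0.56; those with the smallest p were Optc (0.94 ± 0.22, adjusted p = 0.0833), which was at the floor on 3 control arrays, and Bgn (0.46 ± 0.15, adjusted p = 0.180), encoding biglycan. Of 9 collagen receptors 6 were positive, with the smallest p for Itga1 (0.95 ± 0.25, adjusted p = 0.104), the alpha chain of a collagen-binding integrin, and Ddr2 (0.68 ± 0.22, adjusted p = 0.163), a receptor kinase for fibrillar collagen. Itga1 had 435 to 1087 in homozygous pools and 316 to 411 in control pools, without overlap.

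Of 12 collagen-cleaving proteases and inhibitors 11 were positive, with a median of 0.46 and the smallest p for Mmp16 (0.70 ± 0.17, adjusted p = 0.0932) and Mmp2 (0.50 ± 0.14, adjusted p = 0.117), a membrane-bound and a secreted metalloprotease. The 11 include Mmp1a, at the floor on 4 arrays of each genotype, and Mmp13, at the floor on 3 homozygous and 4 control arrays. Mmp16 had 489.7 to 1036 in homozygous pools and 408 to 469 in control pools, also without overlap. Basement membrane partners had 8 of 20 positive differences and a median of -0.16; those with the smallest p were Lama2 (0.47 ± 0.14, adjusted p = 0.143), the laminin chain of muscle and nerve, and Lama1 (-0.98 ± 0.31, adjusted p = 0.169), the laminin chain of early epithelia. Agrn, encoding agrin, was the gene of this list whose pools did not overlap with homozygous pools lower, at 2877 to 4571 in homozygous pools and 4642 to 5183 in control pools; it was named after its values were seen.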

How the data were processed

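The authors deposited linear intensities, 1 value for each probe set of each Affymetrix array, scaled to a common trimmed mean; how they were summarized is not given in the sources used here. The array has 45101 probe sets. After removal of 64 control probe sets, 34945 had 1 gene symbol in the platform annotation, 932 had several and 9160 had none. Intensities under 16 were set to 16 and taken to log2, and each of 18193 genes was represented by its probe set of highest mean. Groups follow the genotype labels; the titles of homozygous pools 1 to 4, and no others, carry the ending of an Affymetrix summary file, and whether those arrays were processed separately is not stated. All genes were fitted together with limma 3.58.1 in R 4.3.3 (lmFit, and eBayes with an intensity trend), with 2-sided p-values and Benjamini-Hochberg adjustment over all genes at a threshold of 0.05. Exact 2-sided permutation tests over the 10 pools were run for single genes. The fit was checked on simulated data.

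The genes, classes and lists were chosen with earlier results of these data known. Every pool is given for each fibrillar, cartilage or basement membrane collagen with a mean log2 level above 8 in either genotype, for the 2 genes with the smallest p in each other class, and for the chains of common trimers; each pathway list is represented by its 2 genes with the smallest p. Class medians are descriptions with no test. Scaling to a common trimmed mean hides changes in total RNA. Precision is limited by there being 5 arrays per genotype. The alternatives were the mean of all probe sets of a gene, each probe set by itself, leaving out the dimmest 60% of genes, quantile normalization, floors of 32 and 4, no intensity trend, array weights, a replicate block, leaving out the 2 arrays of high actin ratio, the 3 pools of high Xist, and each pool in turn. Same-numbered pools of the genotypes did not deviate together (correlations of -0.55 to -0.17), so the numbers were not treated as pairs. Promoters came from the RefSeq table for GRCm38.p6.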

Additional observations from a re-analysis of the deposited data

Results flagged for a closer look

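Each collagen was searched, within each genotype, for a pool far from the other 4 (a gap to the nearest pool above 0.71 of the range on the log2 scale). Of 84 such groups 12 met this (14.3%), where chance gives about 1 in 20 and 17.5% of the groups of all named genes met it. Without groups in which 4 pools lay at the floor, the shares were 12.2% for the collagens and 14% for all named genes. Control pool 5 was the highest control pool for Col9a1 (10607), Col11a1 (3098) and Col11a2 (379.7), the cartilage genes described above. Control pool 2 was the highest for Col6a4 (595) and the lowest for Col4a3 (50.01). Homozygous pool 2 was the lowest for Col14a1 (3546), homozygous pool 5 the lowest for Col16a1 (758), and homozygous pool 1 the highest for Col19a1 (275). Control pool 4 was the lowest for Col13a1 (397.7), and control pool 1 the lowest for Col26a1 (89.3). For Col10a1 homozygous pool 3 (23.4) and control pool 3 (16.1) were the only pools of their genotypes above the floor of 16.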

How the results depend on the processing

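No collagen passed the threshold as lower under any of the 21 alternatives, and array weights were the only setting under which collagens passed as higher (2, Col6a1 and Col6a2). Among 622 combinations of a gene and a setting in which the setting moved the difference and left it other than 0, 586 kept its sign, and 36, in 16 genes, did not. The count of all genes past the threshold, 176 with either sign, was 109 with the mean of all probe sets, 108 without the dimmest 60% of genes, 95 with a floor of 32, 951 with array weights, 28 when the 3 pools of high Xist were left out, 23 when both arrays of high actin ratio were, and 3 to 414 without single pools, with 3 reached without homozygous pool 3 or control pool 3. With a replicate block it was 1, and the block moved no collagen past the threshold. Collagens whose homozygous pools all lay higher numbered 3 to 7 without single pools. Those whose homozygous pools all lay lower numbered 0 to 2, and 1 after quantile normalization. Separation is easier for any gene with fewer pools, and quantile normalization, which kept every pool, changes the values of all genes. No share of all genes is given beside these counts, so they are not read as a result about the collagens. The basement membrane median was 0.13 without the pools of high Xist. Single genes that changed sign were close to 0 or rested on few pools. Without the pools of high Xist the log2 difference was -0.24 for Col24a1, 0.041 for Col9a3, -0.0027 for Col10a1, 0.070 for Col4a1, 0.19 for Col4a4, -0.11 for Col4a5, 0.28 for Col15a1, -0.030 for Col7a1, 0.045 for Col23a1 and 0.30 for Col26a1. Without the arrays of high actin ratio it was -0.12 for Col24a1 and 0.00042 for Col27a1, and with array weights -0.032 for Col24a1. Quantile normalization gave 0.034 for Col27a1 and 0.018 for Col15a1, a floor of 4 gave -0.053 for Col10a1 and 0.017 for Col17a1, and the mean of probe sets gave -0.015 for Col4a5. Without single pools the difference ranged from -0.0021 to 0.30 for Col24a1, -1.51 to 0.34 for Col2a1, -0.65 to 0.16 for Col9a2, -1.08 to 0.56 for Col9a3, -0.0027 to 0.14 for Col10a1, -0.36 to 0.42 for Col11a1, -0.060 to 0.063 for Col27a1, -0.094 to 0.019 for Col4a1, -0.39 to 0.0017 for Col4a4, -0.057 to 0.15 for Col4a5, -0.15 to 0.067 for Col15a1 and -0.10 to 0.39 for Col16a1; for Col2a1, Col9a2, Col9a3 and Col11a1 the positive end is without control pool 5. The causes were not tested. Genes near the floor, such as Col10a1, Col6a5 and Col17a1, carry mostly background.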
